A study of Mus musculus with 6 samples.

Results

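The NF-κB subunits and their feedback inhibitors were followed in splenic CD8+ T cells as a set of 10 genes chosen by name, of 28773 genes in the files. The set held 4 subunit genes (Nfkb1, Nfkb2, Rel, Relb), the 3 classical IκB genes (Nfkbia, Nfkbib, Nfkbie), 2 nuclear IκB genes (Nfkbid, Nfkbiz) and Tnfaip3. RNA was sequenced from CD8+ T cells taken from mouse spleens on day 35. All mice carried an implanted tumour that was destroyed by microwave ablation (MWA). Afterwards 3 samples (1 to 3) came from mice given the PBS vehicle (MWA+PBS), and 3 samples (4 to 6) from mice given repeated injections of 2-deoxy-D-glucose (MWA+2DG), a glucose analogue that blocks glycolysis, the last of them some days before collection. The study used female mice, and the labels gave no strain, age or tumour line for these samples and did not say whether each sample was 1 animal, so p-values measure the spread between these samples. Cells were isolated with a magnetic CD8+ T cell kit, not by flow cytometry.

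NF-κB is a family of dimeric transcription factors built from RelA, c-Rel, RelB and the DNA-binding products of the Nfkb1 and Nfkb2 precursors. In a resting T cell the dimers are held in the cytoplasm by IκB proteins. Engagement of the antigen receptor, of CD28 or of TNF family receptors activates the IKK complex, which marks IκB for degradation and frees the dimers, and these in turn switch on the genes for IκBα and A20 (Nfkbia and Tnfaip3), which shut the pathway down again.

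Before any values, the start regions of the 4 genes that passed the test are shown, because the κB consensus is the DNA letter pattern that NF-κB dimers are known to bind. RefSeq windows of 300 bases (250 before and 50 after a transcript start, assembly GRCm38.p6) were found by symbol for 7 of the 10 genes, in 12 windows. There was no entry for Nfkb1, Relb and Nfkbiz. Each window below runs 5′ to 3′ on the strand of the gene, in lower case, with matches to the 10-letter κB consensus in capitals. For Tnfaip3 and Nfkbid, which have more than 1 window, the window that holds a match was chosen for display. The window of Nfkbia was chr12:55492598-55492897 (minus strand), that of Tnfaip3 chr10:19015361-19015660 (minus), that of Nfkbie chr17:45555450-45555749 (plus) and that of Nfkbid chr7:30422156-30422455 (plus).
Nfkbia: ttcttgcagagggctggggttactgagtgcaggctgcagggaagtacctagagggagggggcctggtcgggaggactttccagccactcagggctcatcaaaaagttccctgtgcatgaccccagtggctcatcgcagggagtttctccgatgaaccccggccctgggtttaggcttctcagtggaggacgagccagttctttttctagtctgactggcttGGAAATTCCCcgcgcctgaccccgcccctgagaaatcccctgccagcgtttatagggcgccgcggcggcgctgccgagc
Tnfaip3: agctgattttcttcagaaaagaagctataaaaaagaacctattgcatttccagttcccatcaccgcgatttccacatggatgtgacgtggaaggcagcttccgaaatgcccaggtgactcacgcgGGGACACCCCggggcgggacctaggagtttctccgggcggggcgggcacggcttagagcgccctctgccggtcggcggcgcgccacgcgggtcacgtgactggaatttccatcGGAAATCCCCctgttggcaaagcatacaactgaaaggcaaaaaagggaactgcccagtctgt
Nfkbie: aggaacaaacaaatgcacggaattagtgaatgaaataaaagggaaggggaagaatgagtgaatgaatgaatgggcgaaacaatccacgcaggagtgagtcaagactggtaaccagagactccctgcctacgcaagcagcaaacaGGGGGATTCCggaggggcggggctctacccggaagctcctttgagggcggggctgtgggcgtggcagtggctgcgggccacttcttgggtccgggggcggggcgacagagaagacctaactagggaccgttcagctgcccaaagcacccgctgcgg
Nfkbid: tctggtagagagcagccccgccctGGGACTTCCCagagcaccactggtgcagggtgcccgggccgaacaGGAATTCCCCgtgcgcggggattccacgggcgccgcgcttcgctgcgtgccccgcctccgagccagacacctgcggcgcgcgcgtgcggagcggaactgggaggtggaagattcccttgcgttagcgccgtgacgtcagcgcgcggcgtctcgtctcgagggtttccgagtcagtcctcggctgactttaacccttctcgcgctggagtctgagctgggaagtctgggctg

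The match in the Nfkbia window, GGAAATTCCC, began 29 bases before the start. The Tnfaip3 window held GGGACACCCC at 125 bases and GGAAATCCCC at 12 bases before the start. The Nfkbie window held GGGGGATTCC 106 bases before the start, and the Nfkbid window held GGGACTTCCC at 226 and GGAATTCCCC at 181 bases before it. Matches were sought on both strands, and those that overlapped were each counted. In all, 8 of the 12 windows (66.7%) held a match. This stood against 8.46% of 32851 RefSeq windows of the same length and 10.3% of the 10555 windows of genes tested here. By gene it was 6 of 7, against 12.0% of the 8342 tested genes with a window. The set was chosen as NF-κB genes and holds genes that NF-κB is known to switch on. Some genes also have several windows, so these shares are a description. Another Tnfaip3 window, 2 other Nfkbid windows and the single Nfkbib window held none. The windows of Nfkb2 and of Rel, which were not called, held 6 and 2 matches, counting 1 stretch of Nfkb2 in both of the overlapping windows that hold it. A match describes letters only, and binding was not measured.

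Of the 10 genes, 2 fell in MWA+2DG (Tnfaip3 and Nfkbia), 2 were higher (Nfkbie and Nfkbid) and 6 were not called, among them all 4 subunits. Values are FPKM, which divides fragments by transcript length and library total. Tests are limma on log2(FPKM + 1), called at a Benjamini-Hochberg adjusted p under 0.05 over 12444 genes with a mean of at least 1 FPKM, and all 10 genes passed that filter. The 4 calls in 10 stood beside 39.4% of all tested genes, with 22.3% higher and 17.1% lower, so the share called was that of the genes at large. By the study's own rule (P under 0.05 and a log fold change beyond 0.25) 3 were called, Tnfaip3, Nfkbia and Nfkbie, beside 38.2% of all genes. The P of that rule was taken here as unadjusted and its log as base 2, which the study does not state. The median log2 fold change of the 10 genes was -0.02, beside 0.05 over all tested genes. The values of the groups did not overlap for 5 of the 10 (the 4 called genes and Rel), beside 52.1% of all genes.

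**Figure D1:**
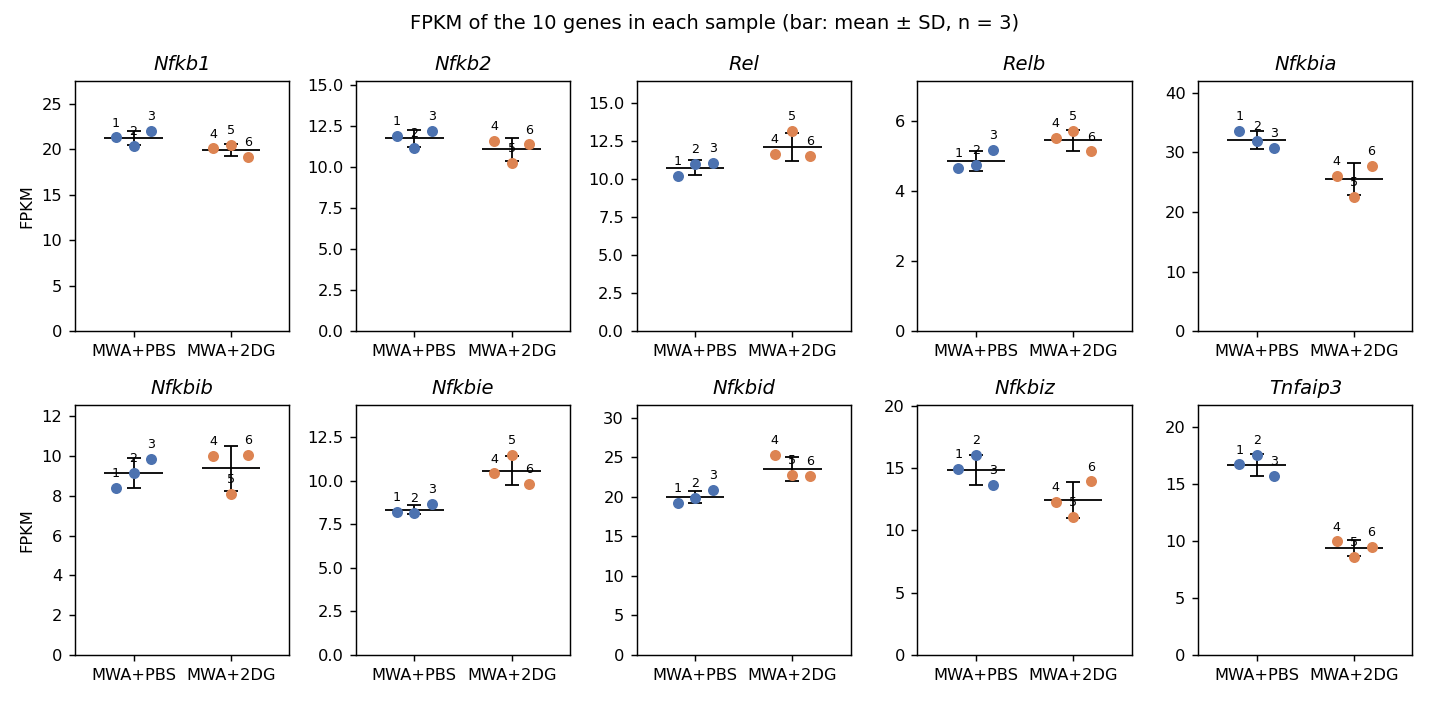
FPKM of each of the 10 genes (vertical axes from 0, 1 scale per gene) in the 3 MWA+PBS and 3 MWA+2DG samples, numbered as labelled, with the mean as a line and the SD as a bar. Tnfaip3 spans 15.69 to 17.54 in the control samples, against 8.57 to 9.95 after 2DG, while the points of Nfkb1, Nfkb2, Relb, Nfkbib and Nfkbiz overlap.

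Tnfaip3 (ENSMUSG00000019850) encodes A20, a ubiquitin-editing enzyme that removes the signalling ubiquitin chains upstream of IKK. Its level was 16.69, 17.54 and 15.69 FPKM in MWA+PBS, against 9.95, 8.57 and 9.50 FPKM in MWA+2DG. Every MWA+2DG sample lay below every MWA+PBS sample, with a wide gap between them. The mean fell from 16.64 ± 0.926 to 9.34 ± 0.704 FPKM (SD, n = 3), a ratio of 0.561. The log2 fold change was -0.77 ± 0.0718 (SE; 95% interval -0.94 to -0.60, limma adjusted p = 0.000171), and 5.9% of tested genes had a lower one. The call held in each alternative that was run, and T lineage scaling, an alternative that sets the 14 T lineage marker genes to the same average level in every library, gave -1.17.

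Nfkbia (ENSMUSG00000021025) encodes IκBα, the rapidly resynthesised inhibitor that gives the pathway its main negative feedback loop. It was at 33.58, 31.94 and 30.69 FPKM in MWA+PBS, against 26.11, 22.59 and 27.79 FPKM in MWA+2DG. The groups did not overlap, but the gap between them was narrower than for Tnfaip3. The mean fell from 32.07 ± 1.45 to 25.50 ± 2.65 FPKM, a log2 fold change of -0.32 ± 0.0812 (95% interval -0.51 to -0.13, limma adjusted p = 0.0165). Without MWA+PBS replicate 1 the value was -0.29 and the call was lost (adjusted p = 0.0612), and under T lineage scaling the value was -0.72 (adjusted p = 6.27e-05).

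Nfkbie (ENSMUSG00000023947) encodes IκBε, a slower classical inhibitor that mainly holds c-Rel and RelA dimers. It was at 8.21, 8.17 and 8.65 FPKM in MWA+PBS, against 10.42, 11.49 and 9.83 FPKM in MWA+2DG. All 3 treated samples lay above all controls, so the classical inhibitors did not move together. Mean FPKM was 8.343 ± 0.266 and 10.58 ± 0.841, a log2 fold change of 0.31 ± 0.0692 (95% interval 0.15 to 0.47, limma adjusted p = 0.0106), which turned to -0.09 under T lineage scaling. The third classical inhibitor, Nfkbib (IκBβ, ENSMUSG00000030595), was at 8.40, 9.15 and 9.88 FPKM in MWA+PBS, against 10, 8.09 and 10.07 FPKM in MWA+2DG. These ranges overlapped almost entirely, and its log2 fold change had a 95% interval of -0.19 to 0.26 (adjusted p = 0.825), with -0.37 and a call under T lineage scaling (adjusted p = 0.00898).

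The make-up of the classical IκB transcripts is described by shares, which were computed after the values had been seen and carry no test. Nfkbia held 66.9%, 64.8% and 62.4% of the summed FPKM of the 3 genes in MWA+PBS and 56.1%, 53.6% and 58.3% in MWA+2DG. Nfkbie held 16.4%, 16.6% and 17.6% in MWA+PBS and 22.4%, 27.2% and 20.6% in MWA+2DG. The share of Nfkbia was lower and that of Nfkbie higher in every treated sample, while Nfkbib held between 16.7% and 21.5% throughout. Because shares are taken within a sample, they do not depend on how libraries are scaled. The summed level was 49.22 to 50.19 FPKM in MWA+PBS, against 42.17 to 47.69 FPKM in MWA+2DG.

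**Figure D2:**
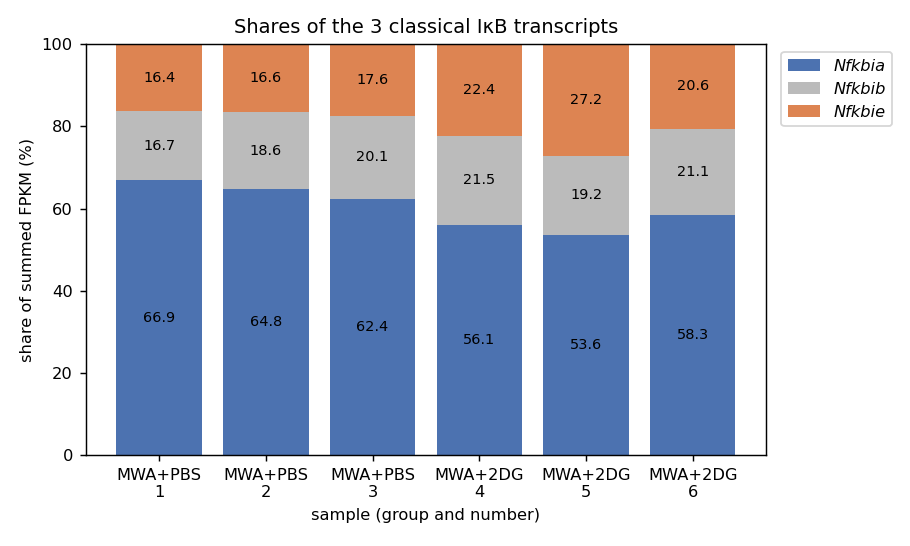
Share of the summed FPKM of Nfkbia, Nfkbib and Nfkbie (vertical axis, percent) in each of the 6 samples, as stacked bars. The Nfkbia share is at least 62.4% in each MWA+PBS sample and at most 58.3% in each MWA+2DG sample.

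Nfkbid and Nfkbiz encode the nuclear proteins IκBNS and IκBζ, which bind the DNA-binding subunits in the nucleus and tune transcription rather than retaining dimers in the cytoplasm. Nfkbid (ENSMUSG00000036931) was at 19.25, 19.81 and 20.86 FPKM in MWA+PBS, against 25.31, 22.72 and 22.66 FPKM in MWA+2DG, with every treated sample above the controls. Its log2 fold change was 0.23 ± 0.0634 (95% interval 0.08 to 0.37, limma adjusted p = 0.0252), which turned to -0.17 under T lineage scaling. The call was lost without MWA+PBS replicate 1 (0.20, adjusted p = 0.091), without MWA+2DG replicate 4 (0.18, adjusted p = 0.086) and under median ratio scaling (0.17, adjusted p = 0.0805). Nfkbiz (ENSMUSG00000035356) was at 14.90, 16.05 and 13.63 FPKM in MWA+PBS, against 12.24, 11.04 and 13.91 FPKM in MWA+2DG. MWA+2DG replicate 6 lay within the control range, and the gene missed the threshold (log2 fold change -0.25 ± 0.0936, 95% interval -0.46 to -0.03, adjusted p = 0.0725). Without that sample it was called (-0.33, adjusted p = 0.0353), as it was under 5 other alternatives.

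Among the subunits, Nfkb1 (ENSMUSG00000028163), the precursor of p50, was at 21.29, 20.37 and 21.99 FPKM in MWA+PBS, against 20.09, 20.49 and 19.17 FPKM in MWA+2DG. Nfkb2 (ENSMUSG00000025225), the precursor of p52 in the non-canonical branch, was at 11.88, 11.18 and 12.20 FPKM in MWA+PBS, against 11.59, 10.25 and 11.39 FPKM in MWA+2DG. Both pairs of ranges overlapped, and the 95% intervals of the log2 fold change were -0.21 to 0.04 for Nfkb1 (adjusted p = 0.246) and -0.23 to 0.08 for Nfkb2 (adjusted p = 0.378). Without MWA+2DG replicate 5 the value of Nfkb2 moved from -0.08 to -0.029. Under T lineage scaling both were called lower, at -0.49 (adjusted p = 0.000501) and -0.48 (adjusted p = 0.000441). Rel (ENSMUSG00000020275), which encodes c-Rel, the subunit best known for its part in T cell activation, was at 10.25, 10.99 and 11.11 FPKM in MWA+PBS, against 11.65, 13.18 and 11.54 FPKM in MWA+2DG. The Rel groups did not overlap, yet the gene was not called (log2 fold change 0.15 ± 0.069, 95% interval -0.01 to 0.31, adjusted p = 0.116), and scaling to T lineage genes turned the sign (-0.25, adjusted p = 0.0372). Without MWA+2DG replicate 5 the value of Rel was 0.097. Relb (ENSMUSG00000002983), the non-canonical partner of p52, was at 4.64, 4.73 and 5.16 FPKM in MWA+PBS, against 5.50, 5.70 and 5.12 FPKM in MWA+2DG, with replicate 6 inside the control range. Its interval was -0.02 to 0.30 (adjusted p = 0.149), and under T lineage scaling the sign turned and it was called lower (-0.26, adjusted p = 0.0274). Exons of Nfkb2 and Nfkbib share bases with genes on the opposite strand in the GENCODE M21 annotation (Psd and a long noncoding RNA for Nfkb2, Ccer2 and Sirt2 for Nfkbib), and whether strand was used in quantification is not given, so their levels are less certain. The other 8 genes share no exon bases with another gene there.

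Rela and Bcl3, a subunit and a nuclear IκB gene that were not among the 10, were examined beside them. Rela was at 33.75, 28.23 and 37.66 FPKM in MWA+PBS, against 34.74, 34.80 and 34.46 FPKM in MWA+2DG, and was not called (log2 fold change 0.07, 95% interval -0.16 to 0.30, adjusted p = 0.603), with -0.33 and a call under T lineage scaling (adjusted p = 0.0225). The treated samples were nearly equal and lay inside a wider control range. Bcl3, which binds p50 and p52 homodimers, was at 9.08, 6.97 and 9.22 FPKM in MWA+PBS, against 4.17, 4.68 and 4.41 FPKM in MWA+2DG. Its log2 fold change was -0.79 ± 0.1052 (limma adjusted p = 0.000964), of about the size of that of Tnfaip3. Relative to Rela within each sample, the log2 values of Nfkbia and Tnfaip3 did not overlap between the groups, with differences of -0.39 and -0.84. Those of the other 8 genes did. For Nfkbia the groups almost touched, as its lowest control value was -0.29 and its highest treated value -0.3. The matching values of Tnfaip3 were further apart, at -1.21 and -1.71. Rela itself varied among the controls, and the share of all tested genes that separate on this ratio was not computed.

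**Figure D3:**
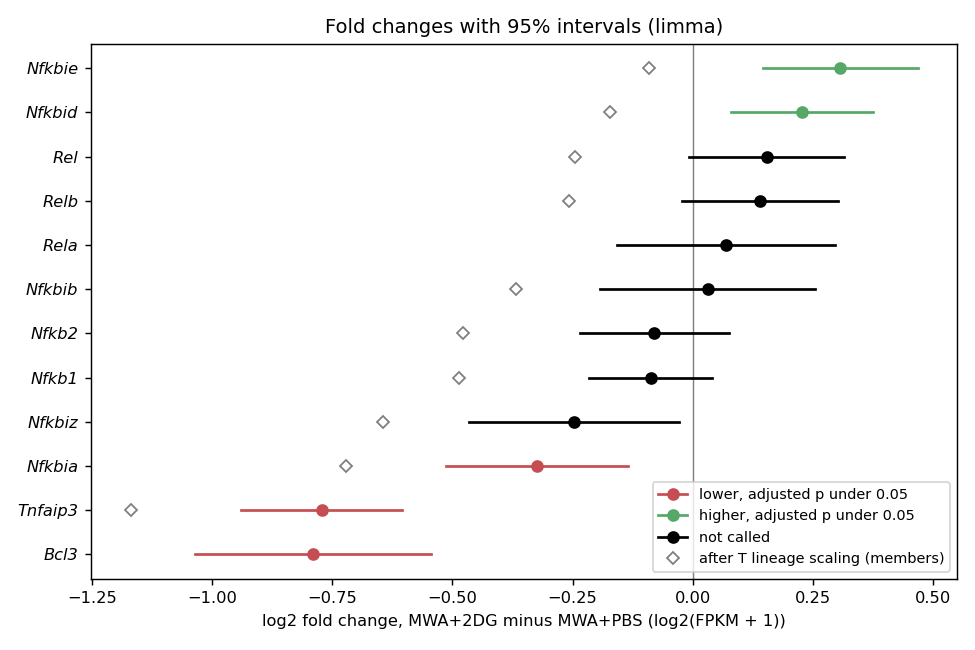
Log2 fold change of log2(FPKM + 1), MWA+2DG minus MWA+PBS (horizontal axis), with 95% intervals from limma for the 10 genes, Rela and Bcl3, and open diamonds for the 10 genes after scaling to T lineage genes. Tnfaip3 and Nfkbia lie below 0 on both scales, whereas Nfkbie and Nfkbid lie above 0 on the FPKM scale and at -0.09 and -0.17 after T lineage scaling.

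Pairs of genes were compared within a sample as differences of log2(FPKM + 1), called log2 ratios here. This removes most of the scaling of the library, though not all, because of the added 1. The genes were chosen with earlier results of these data known. The share of all gene pairs that do not overlap was not computed. With 3 samples against 3, the exact permutation test cannot give a p below 0.1, so none of these 6 ratios could pass. The Tnfaip3 to Nfkbia ratio was -0.97, -0.83 and -0.93 in MWA+PBS and -1.31, -1.3 and -1.46 in MWA+2DG, so that A20 transcripts were lower than IκBα transcripts by a larger margin in each treated sample (difference -0.45, two-sided exact p = 0.1, adjusted over the 6 ratios p = 0.2). The Nfkbiz to Nfkbid ratio was -0.35, -0.29 and -0.58 in MWA+PBS and -0.99, -0.98 and -0.67 in MWA+2DG (difference -0.47, exact p = 0.1, adjusted p = 0.2). The Nfkbia to Nfkbib ratio also did not overlap between the groups (1.54 to 1.88 and 1.3 to 1.38, exact p = 0.1, adjusted p = 0.2). The ratio of Nfkbia to Nfkb1, inhibitor to subunit, overlapped (difference -0.24, exact p = 0.2, adjusted p = 0.3), and without MWA+2DG replicate 5 its difference was -0.14. The ratios between subunits hardly differed, by 0.01 for Nfkb2 to Nfkb1 (exact p = 1.0) and -0.01 for Relb to Rel (exact p = 0.8, adjusted p = 0.96).

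In MWA+PBS, FPKM fell from Nfkbia through Nfkb1, Nfkbid, Tnfaip3, Nfkbiz, Nfkb2, Rel, Nfkbib and Nfkbie to Relb. In that order the ranges of Nfkb1 and Nfkbid, of Tnfaip3 and Nfkbiz, and of Nfkbib and Nfkbie overlapped, and those of the other neighbours did not. In MWA+2DG, Tnfaip3 dropped from rank 4 to rank 9, and the ranges of neighbours from Nfkbiz through Rel, Nfkb2, Nfkbie and Nfkbib to Tnfaip3 all overlapped. Nfkbia was above Nfkbid in 2 of the 3 treated samples, against all 3 controls. Within the treated group, replicate 5 was lowest for Nfkb2, Nfkbia, Nfkbib, Nfkbiz and Tnfaip3 and highest for Nfkb1, Rel, Relb and Nfkbie. Within the controls, replicate 3 was lowest for Nfkbia, Nfkbiz and Tnfaip3 and highest for the other 7.

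The cell markers moved with the groups as well, and these values stand beside each result above. Cd8a was 231.5 ± 6.96 FPKM in MWA+PBS, against 366.4 ± 9.47 FPKM in MWA+2DG, and Cd3e 97.34 ± 7.98 and 127.0 ± 13.2 FPKM, so T cell transcripts were present in every library. Of 14 T lineage genes 12 were higher (summed FPKM 1408 to 1473 and 1920 to 2046). Macrophage and monocyte markers were lower for 12 of 13, with summed FPKM of 862.1 to 927.6 and 316.6 to 349.8 (C1qa 130.1 and 20.25, while Lyz2 was higher, 170.8 and 227.2). Neutrophil markers were higher for 10 of 13 and lower for 2, with sums of 337.1 to 365.9 and 1627 to 1808 (Ngp 26.83 and 613.9). The 2 lower ones were Mpo (226.1 and 33.38) and Elane (47.21 and 10.67), so this list did not move as 1. B cell markers were higher for all 8 tested (11.12 to 12.11 and 54.11 to 59.68), and erythroid markers lower for all 9 (294.1 to 350.0 and 67.18 to 85.26). Plasma cell, dendritic, natural killer, CD4 and platelet markers summed to at most 68.86 FPKM a list in any sample, and over these lists 9 of the 13 tested were lower and none higher. No marker was at 0 in all samples. Mitochondrial transcripts made up 21.41% to 22.84% of the FPKM in the controls and 19.41% to 20.74% after 2DG. In bulk RNA, fewer cells of a type and less RNA per cell cannot be told apart, and the part of other cells in the NF-κB values was not tested.

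Activation and stress programs also differed. Of 18 immediate early genes tested, 12 were lower and 3 higher, with a summed level of 697.5 to 749.9 FPKM in MWA+PBS, against 343.6 to 365.6 FPKM in MWA+2DG (Junb 127.1 and 52.31, Zfp36 93.82 and 56.27). All 7 heat shock genes tested were lower (1186 to 1240 and 404.8 to 429.2, Hspa1b 232.3 and 3.677). The part of these programs in the fall of Tnfaip3 and Nfkbia was not tested. When libraries were scaled to their T lineage genes, the median of all genes moved by -0.40, 8 of the 10 NF-κB genes were called lower and none higher, beside 65.2% of all genes lower (8109, with 524 higher), and their median was -0.42 against -0.35 for all genes. Relative to the median of all genes, Tnfaip3, Nfkbia, Nfkbiz, Nfkb1, Nfkb2 and Nfkbib lay below and Nfkbie, Nfkbid, Rel and Relb above, which the scaling leaves as it was by construction.

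The rest of the pathway was read from lists by role. Of 90 tested genes, 31 were higher and 19 lower, beside 22.3% higher and 17.1% lower of all genes, with a median log2 fold change of 0.09 (0.05 for all genes), and under T lineage scaling 8 were higher and 53 lower. On the list of IKK, IKK-related and NIK genes, 0 of 6 were higher under T lineage scaling, where 2 were lower. On the FPKM scale 5 of 6 were higher. They were Ikbkg (NEMO, 6.823 ± 0.441 and 9.483 ± 0.387 FPKM, adjusted p = 0.00211), Tbk1 (log2 fold change 0.36), Chuk (0.35), Ikbke and Ikbkb, while Map3k14 (NIK) was at -0.19 (adjusted p = 0.0972). Between the antigen receptor and IKK, 3 of 5 were higher (none under T lineage scaling), among them Malt1 (8.677 ± 0.273 and 12.35 ± 0.127 FPKM, adjusted p = 0.000451), and Card9, an adaptor best known from myeloid cells, was lower (log2 fold change -0.72). Of 21 adaptors and ubiquitin ligases, 7 were higher and 2 lower (1 and 14 under T lineage scaling), with Traf1 (0.59), Tab1 (0.53) and Birc2 (0.41) the highest of those called. Of 14 other negative regulators 2 were called on the FPKM scale, beside 39.4% of all genes. Under T lineage scaling 0 were higher and 10 lower, beside 65.2% of all genes lower. The 2 called on the FPKM scale were Cyld and Nkiras1, both higher (log2 fold change 0.30 each), which turned to -0.10 for each under T lineage scaling. With median ratio scaling Nkiras1 was not called (adjusted p = 0.057) and Zfand5, named after its values were seen, was lower (-0.23, adjusted p = 0.0491). Cyld, like A20 a deubiquitinase acting upstream of IKK, was at 13.77, 14.54 and 13.39 FPKM in MWA+PBS, against 16.76, 17.09 and 18.00 FPKM in MWA+2DG. On the FPKM scale these 2 deubiquitinases stood on opposite sides of 0, and after T lineage scaling both lay below it.

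**Figure D4:**
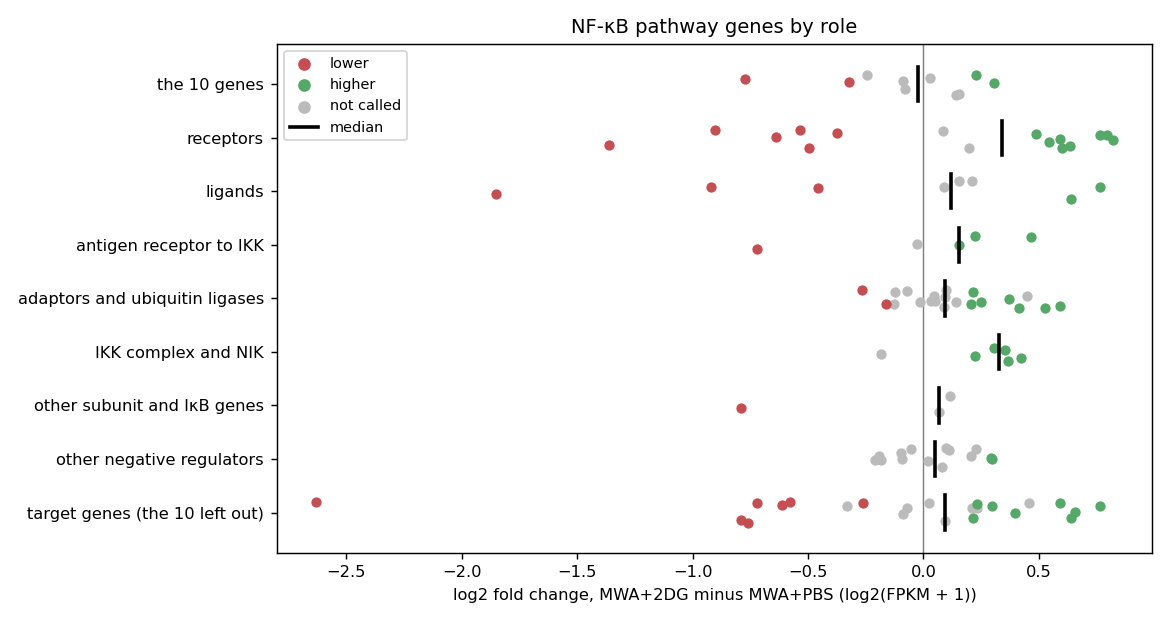
Log2 fold change of each tested gene (horizontal axis, MWA+2DG minus MWA+PBS on log2(FPKM + 1)), 1 row per role, with called genes in colour and the median of each row as a bar. On this scale the genes of the IKK and NIK row lie above 0 for 5 of 6 (1 of 6 after T lineage scaling). Receptors and ligands spread to both sides, with Ltbr at -1.36 and Il18 at -1.85.

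Receptors split by list member: 8 of 16 were higher and 6 lower (5 and 7 under T lineage scaling). Tnfrsf13c, the BAFF receptor of B cells, was at 1.23 and 2.913 FPKM (log2 fold change 0.82), whereas Ltbr, the lymphotoxin receptor of stromal and myeloid cells, was at 5.013 and 1.327 FPKM (-1.36) and Il1rl1, the IL-33 receptor, at 1.773 and 0.4867 FPKM (-0.90). Of 8 ligands 2 were higher and 3 lower (2 and 5 under T lineage scaling). On the FPKM scale Lta (2.133 and 4.333 FPKM) and Ltb were higher. Il18 (11.59 and 2.523 FPKM), Tnfsf9 (1.873 and 0.52 FPKM) and Il1b were lower, and Tnf was not called (log2 fold change 0.21, adjusted p = 0.378). Among 23 target genes besides the 10, 8 were higher and 7 lower (3 and 12 under T lineage scaling), with a median of 0.09. They ranged from Vcam1 (75.74 and 11.40 FPKM, log2 fold change -2.63), which is also on the macrophage marker list, and Bcl3 to Lta (0.76). Il18, Ltbr and Vcam1 are genes that myeloid or stromal cells express, and their part in these values was not tested.

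Genes with the profile most like that of Nfkbia over the 6 samples were sought by the root mean square difference of centred log2 values, as a description. Kctd6 (0.0414), Nagpa (0.0432), Amd2 (0.0438), Mapk3 (0.0441) and Ifrd2 (0.0443) were nearest. Of these Mapk3 encodes the kinase ERK1, and Amd2 is a near-identical copy of Amd1, so its level is uncertain. None of the 5 belongs to the NF-κB lists, and Mapk3 ranged from 16.02 to 18.11 FPKM in MWA+PBS, against from 12.90 to 14.91 FPKM in MWA+2DG.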

How the data were processed

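Bulk RNA-seq of 6 samples was used, grouped by their labels. Libraries were poly(A) selected and strand-marked, with molecular identifiers in the adapters. Per the submitters' processing notes and the study's methods, the authors used fastp, cutadapt 1.9, UMI-tools, HISAT2 2.0.4 (build mm9) and StringTie 1.3.4d with ballgown. The annotation was not given in the sources used. The deposited values are FPKM with 2 decimals and hold no counts, so depth is unknown, no counting interval is given, and replicates could not be compared with counting noise.

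From these, log2(FPKM + 1) was fitted with limma 3.58.1 in R 4.3.3 (eBayes, trend on; two-sided; MWA+2DG relative to MWA+PBS; no covariates). Of the 28773 gene IDs, 12444 had a mean of at least 1 FPKM. Fold changes understate those of low genes. Ratios were tested by exact permutation in scipy 1.17.1. The fit was also run on simulated data with independent noise and far fewer changed genes than were called here. That run does not bear on the calls in these data. The 10 genes and all lists were chosen with earlier results of these data known. Named were all 10 genes, Rela, Bcl3 and the 5 genes nearest to Nfkbia. Each pathway list added up to 3 called genes with the largest change, and each marker list up to 2 of the highest. Ikbke, Ikbkb, Map3k14, Ltb, Il1b, Tnf, Mpo, Elane and opposite-strand neighbours were named after their values were seen. The alternatives were other pseudocounts, filters, scalings and weights, and leaving out each sample. The labels named no batch, and a batch matching the groups could not be separated from treatment. Protein sequences were not used here, and 1 gene that the rule names is not reported here.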

Additional observations from a re-analysis of the deposited data

How the results depend on the processing

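Of the 16 alternatives, Tnfaip3 kept its call in all, and Nfkbie in all but the T lineage scalings. Scaling to 14 T lineage genes gave log2 fold changes of -0.49 for Nfkb1, -0.48 for Nfkb2, -0.25 for Rel, -0.26 for Relb, -0.37 for Nfkbib, -0.091 for Nfkbie, -0.17 for Nfkbid and -0.65 for Nfkbiz (and -0.72 for Nfkbia and -1.17 for Tnfaip3), with 8 of the 10 genes and 8633 genes in all called (524 higher and 8109 lower, against 2773 and 2134 before). Without Cd8a and Cd8b1 in that scale, a choice made after seeing the data, the values were -0.45, -0.44, -0.21, -0.22, -0.33, -0.057, -0.14 and -0.61 for the first 8 in the same order, with 6 of the 10 genes and 8063 genes in all called, Rel (adjusted p = 0.0681) and Relb (adjusted p = 0.0502) not among them. By construction these scalings subtract about the same amount from each gene. Sample weights called Rel (0.17) and Nfkbiz (-0.22), quantile normalization called Nfkbiz (-0.26), and median ratio scaling called Nfkbiz (-0.30), lost Nfkbid (0.17) and moved Nfkbib to -0.022. A mean of at least 5 FPKM tested fewer genes and called 2951, with 32 of 62 pathway genes. The cause of the other changes was not tested.

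Leaving out 1 sample gave log2 values for Nfkb1 between -0.115 and -0.061, Nfkb2 between -0.112 and -0.029, Rel between 0.097 and 0.186, Relb between 0.11 and 0.18, Nfkbia between -0.39 and -0.24, Nfkbib between -0.023 and 0.124, Nfkbid between 0.18 and 0.26, Nfkbiz between -0.33 and -0.17, Nfkbia to Nfkb1 between -0.33 and -0.14, Nfkb2 to Nfkb1 between -0.038 and 0.077, Relb to Rel between -0.046 and 0.014. The 10 genes had between 2 calls (without MWA+PBS replicate 1) and 5 (without MWA+2DG replicate 6). No paired analysis was possible because the groups share no sample numbers. Depth is unknown, and the 95% intervals of the fold changes cover the spread between samples on the FPKM scale, not the choice of scaling.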
